A study of Mus musculus with 3 samples.

Results

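The genes described here encode the translation initiation factors (eIF) and elongation factors (eEF) of mouse macrophages. They were chosen by name: every gene with an annotated protein-coding transcript whose symbol begins with Eif and a digit or with Eef, leaving out the eIF2 kinases, which gave 65 of the 55536 annotated genes. The cells were bone-marrow-derived macrophages of the mouse strain C57BL/6J, which are untransformed primary cells. All were exposed to Lipid A, the endotoxin component sensed through Toll-like receptor 4, at 100 ng/ml for 12 h, spent 12 h without it after a wash, and met the same dose once more for 10 min. Their cytosolic RNA, cleared of ribosomal RNA, was sequenced in 3 libraries, called replicates 1, 2 and 3, which share one donor identifier. Sex and age were not collected, per the labels, and libraries of other treatments or fractions were not analysed here. All values are therefore levels in restimulated cells. Levels are in TPM, an abundance corrected for transcript length and for the library's total. They are printed as mean ± SD (n = 3) or library by library in the order of replicates 1, 2 and 3, from the alignment-based table unless the direct one is named. In bulk RNA, fewer cells of a type and less RNA per cell cannot be told apart.

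Translation begins when eIF2 brings the initiator tRNA to the small ribosomal subunit, aided by eIF1, eIF1A, eIF3 and eIF5. The cap-binding complex eIF4F, made of eIF4E, the scaffold eIF4G and the RNA helicase eIF4A, loads this assembly onto the mRNA, and eIF5B then joins the large subunit. During elongation eEF1A delivers aminoacyl-tRNA, the eEF1B subunits recharge it with GTP, and eEF2 moves the ribosome along. Phosphorylation of eIF2 and sequestration of eIF4E by the 4E-BPs are the best known brakes on initiation, and both have been studied in macrophages exposed to endotoxin.

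The libraries held 32108408, 53165872 and 57117456 expected counts, of which the 65 genes took 278505, 546445 and 554075. The share of TPM in nuclear-encoded protein-coding genes was 34.3%, 27.8% and 27.8%, so a given TPM stands for a higher level among mRNAs than it would where mRNAs fill the library. The higher share in replicate 1 also raises TPM there beside the other libraries. Eif4a1 stood at 201, 178 and 157 TPM, but at 586, 639 and 564 when rescaled over these genes. An order of libraries in TPM therefore need not hold among mRNAs. All 8 macrophage markers examined were detected, from 41.1 TPM for Mertk to 2989 for Lyz2. None of 6 lymphocyte, 5 neutrophil, 4 erythroid or 5 fibroblast markers was, and the summed TPM of each of these lists was at most 0.23 in any library, with Cd3e, Ly6g and Hbb-bs at 0. Replicate 1 stood apart: 4 RNAs known to stay in the nucleus, Malat1, Neat1, Xist and Kcnq1ot1, summed to 1432 TPM there and to 133 and 170 in replicates 2 and 3.

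Of the 65 factor genes, 61 reached 1 TPM in every library, which is the meaning of detected here. The share over all nuclear-encoded protein-coding genes was 41.4%. The median of the mean levels was 20.0 TPM over the 65 genes, and 21.4 TPM over the detected ones against 8.71 over all detected protein-coding genes. Of the 65, 40 had a mean of at least 10 TPM and 6 of at least 100. Together they made up 0.944%, 1.13% and 1.00% of the TPM of nuclear-encoded protein-coding genes (1.03 ± 0.0936%, SD, n = 3). The 6 highest genes, Eef1a1, Eif1, Eef2, Eif4a1, Eif4g2 and Eif5a, carried 59.7 ± 0.945% of the factors' TPM in all.

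**Figure D1:**
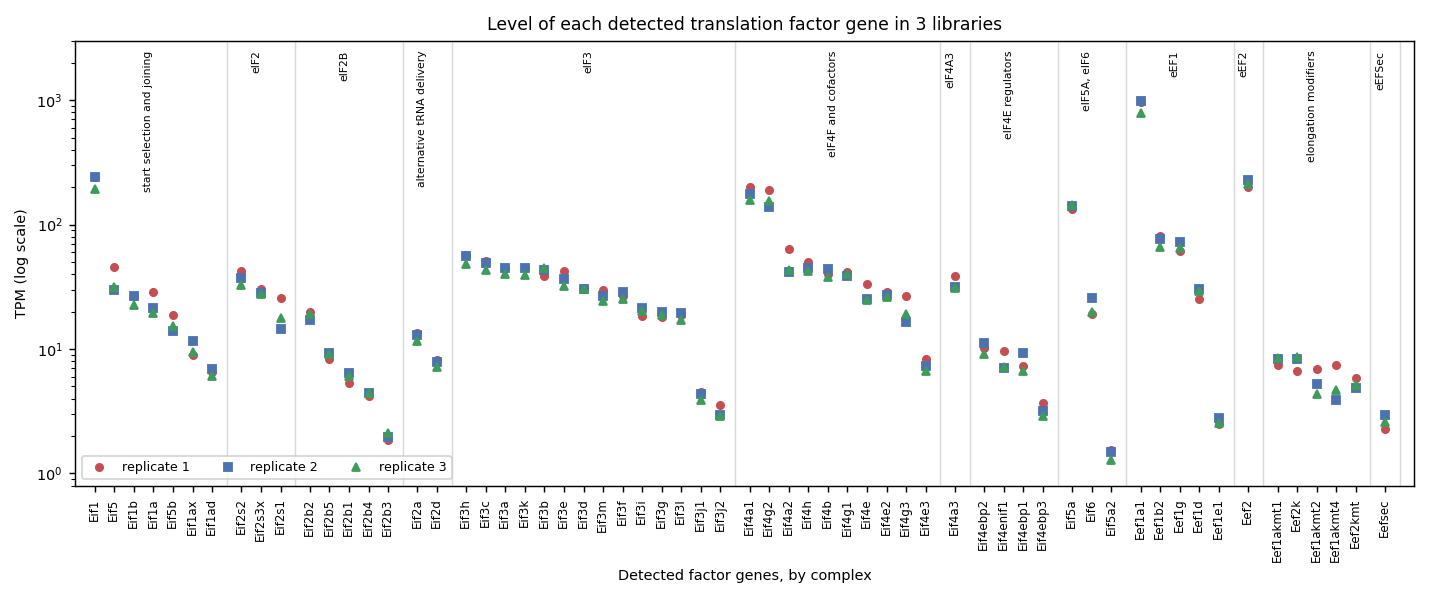
TPM of the 61 detected factor genes on a log axis, grouped by complex and ordered by mean level within it, with a point for each library. Eef1a1 stands highest at 782 to 977 TPM, the eIF3 genes other than Eif3j1 and Eif3j2 lie within 17.2 to 57.5 TPM, and the eIF2B genes within 1.86 to 19.9 TPM.

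Elongation factor 1 held the most abundant gene of the set. Eef1a1, which encodes the carrier of aminoacyl-tRNA, lies on chr9:78478449-78489151 (mm10, minus strand) and stood at 958, 977 and 782 TPM. With 906 ± 108 TPM it ranked 25th among nuclear-encoded protein-coding genes and took 29.6 ± 1.57% of the factors' TPM. Its paralogue Eef1a2, the form known from neurons and muscle, had no count in any of the 3 libraries, a result that leaves room for up to 0.0353 TPM (3 counts in the library where they weigh most, counting error only). Eef1a1 was thus at least 22161-fold higher. Both genes code for nearly the same protein, and their coding sequences were 80.6% identical base for base, yet they shared no stretch of 31 bases. The first 60 coding bases of each show how far apart the mRNAs are, with the bases that differ in capitals:
Eef1a1: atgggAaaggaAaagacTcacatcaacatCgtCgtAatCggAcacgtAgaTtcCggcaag
Eef1a2: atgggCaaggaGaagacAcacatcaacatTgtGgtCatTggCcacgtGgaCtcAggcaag

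In these 60 bases 11 differ. Sequence is shared with other genes instead: 74.8% of the 31-base stretches of the Eef1a1 transcript also occur in other annotated genes, the largest share (49.1%) in Gm13456. The subunits that recharge eEF1A were lower. Eef1b2, the exchange factor itself, stood at 80.9, 76.9 and 66.3 TPM, and Eef1g, its scaffold subunit, at 61.2, 72.7 and 64.2 TPM. The order of these subunits was the same in every library, but by as little as 1.03-fold in replicate 3 (1.14 ± 0.160). Over coding transcripts alone it was the opposite in every library, as given with the transcript classes. Eef1d, the other exchange subunit, was lower at 25.3, 30.5 and 29.4 TPM, so that Eef1b2 exceeded it 2.66 ± 0.483-fold. Eef1e1, which encodes a small protein bound to the multi-tRNA synthetase complex, stood at 2.61 ± 0.137 TPM. By its name it is counted with eEF1 in all group medians. Per length Eef1a1 exceeded Eef1b2 12.1 ± 0.503-fold and Eef2 4.25 ± 0.520-fold.

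Eef2, the translocase, stood at 201, 228 and 210 TPM (213 ± 13.7), lowest in replicate 1. Eef2k, the kinase that inactivates eEF2, was found at 6.71, 8.38 and 8.62 TPM, lowest in replicate 1. The methyltransferase genes Eef1akmt1, Eef1akmt2, Eef1akmt4 and Eef2kmt, whose products modify eEF1A and eEF2, had means of 8.07, 5.52, 5.32 and 5.27 TPM. Eef1akmt3, another eEF1A methyltransferase gene, was the only undetected factor with any count, 1, 0 and 1. Eef1akmt4 varied most of them, at 7.39, 3.90 and 4.67 TPM, highest in replicate 1. It overlaps Alg3 on the opposite strand (4.18, 4.47 and 4.39 TPM), and 42.3% of its 31-base stretches are shared with the overlapping gene Gm49333, which had 0 counts throughout. Eefsec, which delivers selenocysteine tRNA, stood at 2.61 ± 0.320 TPM. As a group the elongation modifiers were low (median 5.42 TPM) beside the factors they act on.

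Eif5a, the elongation and termination factor that carries the amino acid hypusine, stood at 134, 141 and 143 TPM (139 ± 4.70), lowest in replicate 1. Its paralogue Eif5a2 stood at 1.53, 1.5 and 1.28 TPM, detected but 97.9 ± 12.6-fold lower. The first 60 coding bases, of which 17 differ, are shown because this is the widest gap between 2 detected paralogues:
Eif5a: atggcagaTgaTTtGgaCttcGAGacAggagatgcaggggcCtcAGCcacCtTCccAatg
Eif5a2: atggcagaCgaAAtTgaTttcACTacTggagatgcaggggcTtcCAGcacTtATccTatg

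These genes lie on chr11:69916714-69921958 (minus strand) and chr3:28781276-28798846 (plus strand). Dhps and Dohh, the enzymes that make hypusine, were at 13.6 ± 0.307 and 8.50 ± 0.681 TPM. Together with the genes of diphthamide synthesis, which modifies eEF2, all 8 members of that list were detected (median 2.65 TPM). Eif6, which keeps the ribosomal subunits apart, stood at 19.0, 25.6 and 19.8 TPM, highest in replicate 2.

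Among the factors of start codon selection, Eif1, the gatekeeper of start recognition, was by far the highest at 241, 240 and 193 TPM. Eif1b, which encodes a near-copy of that protein, stood at 26.9, 26.9 and 22.4 TPM. The ratio was one of the steadiest in the set (8.95, 8.93 and 8.60, mean 8.83 ± 0.196). The first 60 coding bases differ at only 5 places, and the coding sequences are 81.1% identical with no shared 31-base stretch:
Eif1: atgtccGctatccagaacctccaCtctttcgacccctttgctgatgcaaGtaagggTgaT
Eif1b: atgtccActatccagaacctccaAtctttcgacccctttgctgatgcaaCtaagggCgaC

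Eif1 lies on chr11:100319885-100322096 and Eif1b on chr9:120492232-120495330, both on the plus strand. Eif1a and Eif1ax encode eIF1A, which binds the decoding site beside eIF1. Eif1a stood at 28.8, 21.5 and 19.4 TPM and Eif1ax at 8.95, 11.5 and 9.39 TPM, so Eif1a was higher in every library, 3.21-fold in replicate 1 and 1.87- and 2.06-fold in the others. Eif5, which stimulates GTP hydrolysis by eIF2, was higher in replicate 1 (45.6 TPM) than in replicates 2 and 3 (30.0 and 31.3). Eif5b, the subunit-joining GTPase, showed the same order at 18.7, 13.8 and 15.3 TPM. On CPM, the library-scaled count without length correction, the libraries lay closer: 199, 178 and 189 for Eif5 and 190, 182 and 208 for Eif5b. Eif1ad, a relative of eIF1A, stood at 6.53 ± 0.405 TPM and overlaps Banf1 on the opposite strand.

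A gene for each of the 3 chains of eIF2 was detected. Eif2s2 (beta) stood at 42.7, 37.1 and 32.9 TPM, Eif2s3x (gamma) at 30.4, 28.4 and 27.9, and Eif2s1 (alpha), whose product is the target of the stress kinases, at 25.5, 14.4 and 17.8. The beta chain was highest in every library, 1.30 ± 0.112-fold above gamma and 2.03 ± 0.477-fold above alpha. The order of gamma over alpha was the same in each library in the alignment-based table, but turned in replicate 1 of the table made directly from the reads (alpha over gamma 1.09, 0.739 and 0.859). Eif2s3y, the Y-linked copy of the gamma chain gene, had 0 counts in all 3 libraries (up to 0.0630 TPM), against which Eif2s3x was at least 443-fold higher. Sex was not collected, and whether the cells carry a Y chromosome was not tested (Xist stood at 32.6, 0.42 and 0.35 TPM). The direct table gave Eif2s3y small estimates, 737-, 4037- and 958-fold below Eif2s3x. Their coding sequences are 86.3% identical, and 0.289% of the coding 31-base stretches of Eif2s3y occur in Eif2s3x.

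The 5 subunits of eIF2B, the factor that reloads eIF2 with GTP, were much less abundant (median 5.93 TPM). They ran from Eif2b3 (1.98 ± 0.131) through Eif2b4 (4.34 ± 0.118), Eif2b1 (5.93 ± 0.510) and Eif2b5 (8.89 ± 0.552), the catalytic subunit, to Eif2b2 (18.7 ± 1.39). On the CPM scale all 5 were lowest in replicate 1, as were 42.3% of all genes tested, and Eif2b2 and Eif2b4 did not vary beyond counting error. On TPM Eif2b2 was highest in replicate 1 (19.9, 17.2 and 19.1). Eif2b2 exceeded Eif2b3 9.49 ± 1.07-fold, but the larger mean share of the Eif2b2 level lay in retained-intron transcripts, as described with the transcript classes. Over coding transcripts alone Eif2b2 stood at 9.46, 8.75 and 8.85 TPM and Eif2b5 at 8.25, 9.23 and 9.18, with no one order. Of the 6 genes for the eIF2 kinases and the phosphatase subunits that reverse them, all were detected (median 12.8 TPM). Eif2ak2, the kinase PKR, led at 55.9, 30.8 and 34.2 TPM and Eif2ak3, the kinase PERK, was lowest at 2.27, 2.39 and 2.38. The other carriers of initiator or non-standard tRNA were at 12.7 ± 0.927 (Eif2a) and 7.73 ± 0.478 TPM (Eif2d). Eif2a overlaps Serp1, which lies on the opposite strand at 149, 96.8 and 132 TPM, and reads in the overlap cannot be told apart without the strand setting of the counting.

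All 14 genes of eIF3, the largest initiation factor, were detected (median 28.7 TPM). Leaving out the loosely bound j subunit, the other 12 lay within a 2.92-fold range. Eif3h was highest at 57.5, 56.1 and 48.2 TPM, followed by Eif3c (47.7 ± 3.77), Eif3a (43.3 ± 2.87), Eif3k (42.8 ± 3.29) and Eif3b (42.3 ± 3.20). Eif3c, Eif3a and Eif3k kept this order in every library, though Eif3a and Eif3k were close (44.97 and 44.78 TPM in replicate 2). Eif3b was below all of these in replicates 1 and 2 and above them in replicate 3 (44.65 TPM, with Eif3c at 43.40). Eif3a, Eif3b and Eif3c encode the core on which the rest is built. The lowest were Eif3i (20.0 ± 1.45), Eif3g (18.9 ± 0.828) and Eif3l (18.5 ± 1.18), with Eif3l at 18.7, 19.5 and 17.2 TPM. Eif3d, whose product can itself bind caps, stood at 30.8, 30.4 and 30.2 TPM. Eif3i, Eif3g and Eif3l did not exceed 21.21 TPM in any library, and none of the 5 highest genes was under 38.6 TPM in any.

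The j subunit has 2 genes, and their separate levels are uncertain. Eif3j1 stood at 4.52, 4.37 and 3.86 TPM and Eif3j2 at 3.56, 2.94 and 2.92, an order of 1.36 ± 0.113 to 1. In the table made directly from the reads the order was the opposite in every library (ratio 0.522, 0.454 and 0.492). The aligned coding bases of the genes, 783 in all, are 100% identical, and 94.0% of the 31-base stretches of the whole Eif3j2 transcript occur in Eif3j1. The order of the genes is therefore not settled by these tables.

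The eIF4F genes and their cofactors had a median of 40.0 TPM. The helicase gene Eif4a1 (chr11, minus strand) was highest at 201, 178 and 157 TPM. It exceeded Eif4e, the cap-binding protein gene, 6.49 ± 0.517-fold and the scaffold gene Eif4g1 4.46 ± 0.511-fold. Eif4e (33.3, 25.2 and 24.6 TPM) and Eif4e2, which encodes a repressive cap-binding protein (28.7, 26.9 and 26.2 TPM), had no one order: the ratio was 1.16, 0.934 and 0.940, while in the direct table Eif4e was above Eif4e2 in every library (1.47, 1.10 and 1.06). Eif4e3 was lower at 7.40 ± 0.811 TPM, and Eif4e1b, an oocyte form, had 0 counts in the alignment-based table. The direct table, rescaled to nuclear-encoded protein-coding TPM, gave Eif4e1b 4.13, 0.127 and 0.392. Eif4g2, also called DAP5, which lacks the eIF4E-binding part, stood at 191, 137 and 156 TPM and exceeded Eif4g1 (41.3, 38.5 and 40.3 TPM) 4.02 ± 0.550-fold. Eif4g3 was lowest of the scaffolds at 26.8, 16.4 and 19.2 TPM. The helicase cofactors Eif4b and Eif4h stood at 40.5 ± 3.10 and 45.7 ± 3.95 TPM and differed by 1.02- to 1.26-fold, an order that turned in replicate 2 of the direct table (Eif4h over Eif4b 0.995). Eif4a3, a helicase of the exon junction complex rather than of initiation, stood at 33.6 ± 4.08 TPM.

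The genes that restrain eIF4E were low (median 7.86 TPM). Eif4ebp2 stood at 10.2, 11.1 and 9.12 TPM, Eif4ebp1 at 7.34, 9.21 and 6.67, and Eif4ebp3 at 3.71, 3.17 and 2.91. This order held in every library. Eif4ebp3 is the least certain of them, because 66.4% of its 31-base stretches belong also to the overlapping gene AC115631.1 on the same strand (6.48, 5.39 and 4.97 TPM). Eif4e exceeded Eif4ebp1 3.65 ± 0.901-fold and Eif4ebp2 2.75 ± 0.505-fold. Eif4enif1, which carries eIF4E into the nucleus, stood at 7.98 ± 1.49 TPM. All 10 genes on a list of mTORC1 and the cap-complex kinases were detected (median 7.15 TPM). Mknk2 and Mknk1, kinases of eIF4E, stood at 33.3 ± 0.560 and 22.9 ± 4.01 TPM, Mtor at 5.19 ± 0.618, and Pdcd4, an inhibitor of eIF4A, was lowest at 1.94 ± 0.325. Of the poly(A)-binding proteins and their partners, all 4 were detected, and Pabpc1 was at the level of Eef2 (208 ± 9.77 TPM). Of 6 termination and recycling genes 5 were detected, led by Etf1 at 29.6 ± 3.03 TPM.

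Of 13 paralogue pairs compared within libraries, 12 kept one order in all 3 libraries, and Eif4e with Eif4e2 was the exception. An exact paired sign-flip test over 3 libraries cannot give a p below 0.25, so these orders carry no call of significance. In 11 pairs the order was also the same in every library of the table made directly from the reads. The other two were Eif4e with Eif4e2 and Eif3j1 with Eif3j2.

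**Figure D2:**
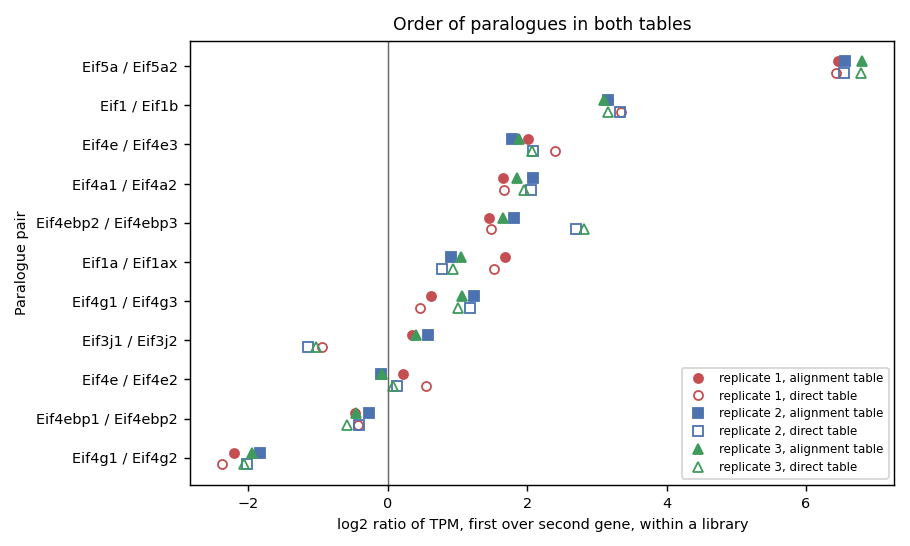
The log2 ratio of TPM within each library for the 11 paralogue pairs with counts for both genes, filled for the alignment-based table and open for the table made directly from the reads. The Eif3j1 points lie on opposite sides of 0 in the tables, and for Eif4e over Eif4e2 the filled points lie on both sides of 0 and the open ones above it.

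Both tables split each gene over its annotated transcripts, which shows how much of a level was assigned to transcripts of the class protein coding. That class also takes in transcripts whose annotated frame is incomplete. Over the detected factor genes, a median of 97.0% of TPM lay in protein-coding transcripts in the direct table, against 94.1% over all detected protein-coding genes. Coding share was under 80% for 11 of 61 members in the direct table (background 21.8%) and for 10 of 61 in the alignment-based table (background 18.0%), 8 of them shared. The members' shares were close to those over all genes. In the direct table the median coding share was lower in replicate 1 (93.2%) than in replicates 2 and 3 (99.1% and 99.0%), as it was over all detected protein-coding genes (88.5%, 97.8% and 98.0%). The members below 80% in both tables were Eif4a2, Eif1ax, Eif2b2, Eif4a3, Eef1b2, Eif1, Eef1akmt2 and Eif4ebp1.

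**Figure D3:**
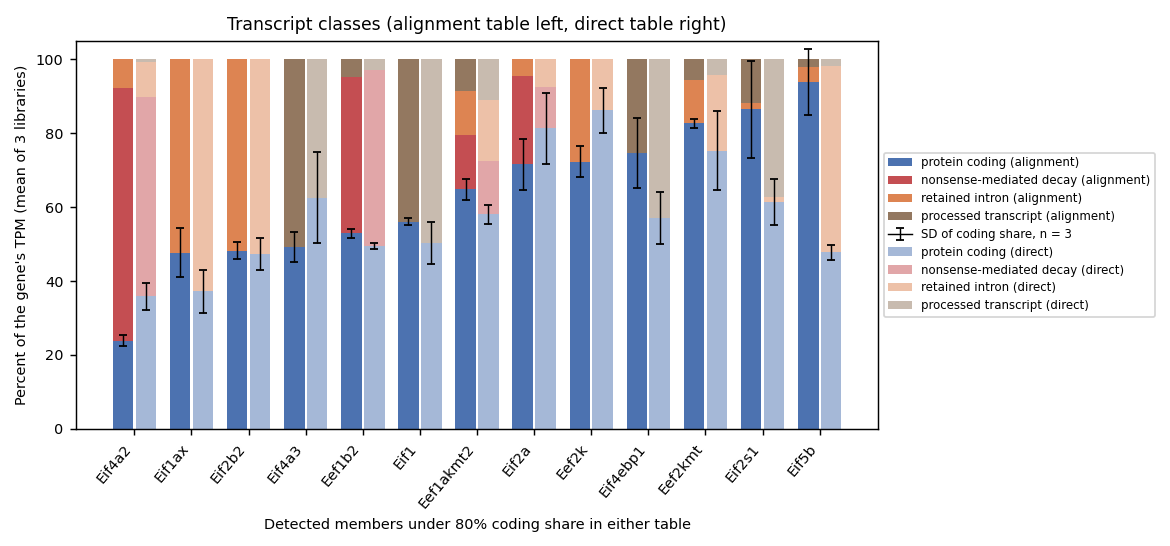
Mean percent of each gene's TPM in 4 transcript classes for the 13 detected members under 80% coding share in either table, with the alignment-based table at the left of each pair in full colour and the direct table at the right in pale colour, and bars for the SD of the coding share (n = 3). Eif4a2 has the lowest coding share in both, and Eif5b, Eif2s1 and Eif4ebp1 differ most between the tables.

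Eif4a2, the other eIF4A helicase gene (chr16, plus strand), stood at 63.8, 41.8 and 43.4 TPM, but most of this was assigned to other than coding transcripts. Its coding share was 31.6%, 37.4% and 38.5% in the direct table and 23.0%, 23.0% and 25.6% in the alignment-based one. The class annotated for nonsense-mediated decay, the pathway that removes mRNAs with an early stop codon, took 53.8% and 68.3% of its TPM in these tables. The leading transcript was Eif4a2-210 in every library and both tables (38.6 ± 5.74% and 44.4 ± 5.61%). It lacks exon 4 of the coding transcript Eif4a2-201, 140 bases at chr16:23109120-23109259. The spliced joins, 15 bases on each side, are shown because this skip defines the leading transcript, with the second exon in capitals:
Eif4a2-201, exon 3 to exon 4: tcccttgtattaaagGGTATGATGTGATTG
Eif4a2-201, exon 4 to exon 5: gaactggctcaacagATCCAAAAGGTAATT
Eif4a2-210, exon 3 to exon 5: tcccttgtattaaagATCCAAAAGGTAATT

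The skipped length is not a multiple of a codon, so the reading frame shifts and meets a stop codon at chr16:23110065-23110067, with 6 exon junctions after it. A further decay transcript, Eif4a2-204, keeps exon 4 but adds an exon of 107 bases at chr16:23112351-23112457, whose stop codon has 1 junction after it. The last 30 spliced bases up to each early stop, with the stop in capitals, read:
Eif4a2-210: ttgcattggaggaacaaatgttcgaaaTGA
Eif4a2-204: cgtgaaaactatattcacaggagtcgaTAG

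Transcripts without exon 4 (Eif4a2-210 and Eif4a2-217) took 44.5%, 55.0% and 54.9% of Eif4a2 TPM in the alignment-based table and 34.7%, 44.9% and 40.7% in the direct one. Replicate 1 was lowest in both. Eif4a2-204 took 16.8 ± 3.33% and 13.7 ± 4.32%. Counted over coding transcripts alone in the alignment-based table, Eif4a1 exceeded Eif4a2 by 12.9-, 18.0- and 13.8-fold (14.9 ± 2.72), against 3.67 ± 0.547 for the whole genes. In the direct table the coding ratio was 8.16, 9.66 and 8.38 (8.73 ± 0.807), so its size depends on the table while its direction does not. The leading coding transcript of Eif4a2 in the alignment-based table, Eif4a2-225, has 968 coding bases against 1221 in Eif4a2-201. These ratios are therefore not of complete frames alone. Both helicase genes also host small nucleolar RNA genes. Gm26447, inside Eif4a2, had 78.9, 2.99 and 6 expected counts. In Eif4a1, Gm25835 and Gm22988 had 45 and 69.6 counts in replicate 1 and at most 5.90 in the others. Their part in the values of the host genes was not tested.

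In several other members, classes other than coding took a large part of TPM but did not always lead. In Eef1b2 a decay transcript, Eef1b2-205, led with 46.8 ± 1.63% (direct) and 41.9 ± 0.762% (alignment-based), above the leading coding one, Eef1b2-209 (38.2 ± 1.43% and 39.6 ± 1.16%). With coding transcripts alone, Eef1b2 was below Eef1g in every library (ratio 0.780, 0.659 and 0.550) and its excess over Eef1d was 1.42 ± 0.267-fold, with both orders the same in the direct table (means 0.625 and 1.26). In Eif1ax and Eif2b2 retained-intron transcripts took a mean of 62.8% and 52.7% of TPM in the direct table and 52.3% and 51.8% in the other. The larger class differed between libraries in the alignment-based table. The coding share there was 52.2%, 40.1% and 50.7% for Eif1ax and 47.5%, 50.8% and 46.3% for Eif2b2. Counted over coding transcripts, Eif1a exceeded Eif1ax 4.97 ± 1.08-fold. In Eif1 and Eif4a3 the class processed transcript, without an annotated frame, took 49.7% and 37.4% (direct) and 43.9% and 50.8% (alignment-based). Over coding transcripts Eif1 still exceeded Eif1b in every library, 4.95 ± 0.0596-fold. The leading transcript differed between tables for Eif2b2, Eif4a3 and Eif4e. Eif5b shows how far such splits depend on the method: its coding share was 47.8 ± 2.01% in the direct table and 93.8 ± 8.84% in the other. Eif2s1 (61.3 ± 6.22% and 86.5 ± 13.1%) and Eif4ebp1 (57.0 ± 7.04% and 74.6 ± 9.41%) also differed. Eef1d, Eif4g2 and Eif4h had mean coding shares of at least 92% in both. In replicate 1 of the direct table Eif4g2 and Eif4h were at 86.9% and 83.9%.

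The agreement of the tables on whole genes was closer. On a scale of nuclear-encoded protein-coding TPM, 57 of 61 detected members agreed within 1.25-fold. Of 29 members with at least 10% of their 31-base stretches in another annotated gene, 3 differed by more than that (Eif3j2, Eif3j1 and Eif2s1), and of the 32 others 1 did, Eif4ebp2. A high share of common sequence also occurred without such a difference: Eef1a1 (74.8%), Eef1g (68.0%) and Eif4a1 (67.5%) had direct over alignment-based ratios of 0.939, 0.934 and 1.02.

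**Figure D4:**
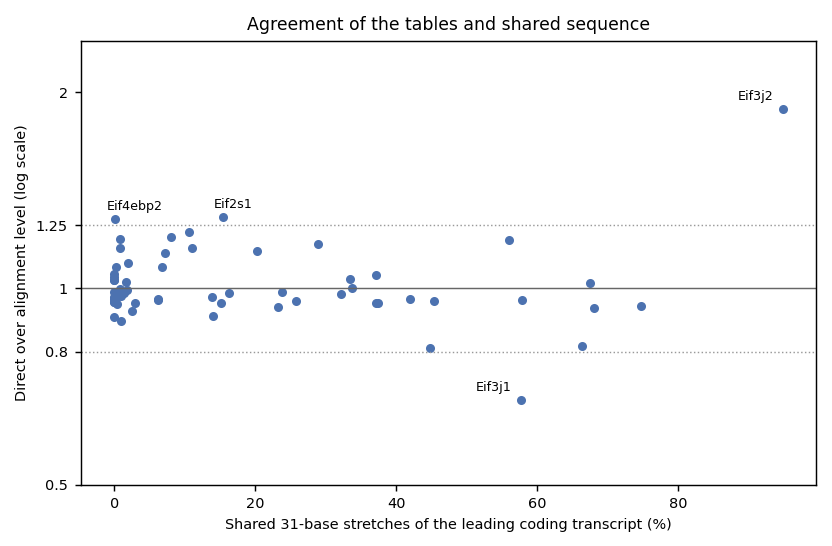
For each of the 61 detected members, the level in the direct table over that in the alignment-based one (log axis) against the percent of 31-base stretches of its leading coding transcript that occur in another annotated gene. Dotted lines mark 1.25-fold, outside which lie Eif3j2 (1.88), Eif3j1 (0.674), Eif2s1 (1.29) and Eif4ebp2 (1.28).

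The spread between libraries was tested on counts. With a chi-square statistic for each gene on its 3 counts, and Benjamini-Hochberg adjustment over the 12515 genes that passed edgeR's expression filter, 53 of 61 members varied beyond counting error, where 71.5% of all genes tested did. A deep count makes small differences detectable, and the fold sizes were small. The median coefficient of biological variation by edgeR was 0.144 for the members, 0.163 for protein-coding genes and 0.172 for all genes. Of the 61 members, 49 lay under the median of all genes. The members' median level was above that of all detected protein-coding genes, and genes of like level were not compared. The 8 that did not pass the test were Eef2kmt, Eif2b2, Eif2b4, Eif3j2, Eif4e, Eif4e3, Eif4ebp3 and Eif4enif1. Without replicate 1, 34 members varied beyond counting error, where 40.4% of all genes did, and the median coefficient was 0.0922 for the members and 0.105 for all genes. Without replicate 2 or 3 the counts were 44 and 48, where 58.2% and 61.5% of all genes varied.

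Replicate 1, the library rich in nuclear RNA, was on the low side for most members. On log2 CPM with TMM scaling, its median difference from the mean of the other two was −0.16 over the members, −0.01 over all genes and −0.03 over protein-coding genes. With no expression filter it was −0.25 over the members and 0.02 over all genes. It was the lowest library for 42 of 61 members, where 42.3% of all genes were lowest in it, and the highest for 8, where 39.8% were highest. No member departed by more than 1.5-fold, while 11.3% of all genes were higher and 5.27% lower by that much. The lowest were Eif4ebp1 (−0.52; 14.6, 23.3 and 19.0 CPM) and Eef2k (−0.51; 24.7, 34.6 and 35.7 CPM). The highest was Eef1akmt4 (0.52; 9.87, 6.22 and 7.55 CPM), followed by Eif4g3 (0.29) and Eif4a2 (0.28). Eef2 was lower by 0.40 (840, 1136 and 1078 CPM), and Eef1a1 was highest in replicate 2, with replicates 1 and 3 alike (2165, 2639 and 2170 CPM). The medians by complex were −0.35 for Eif5a, Eif5a2 and Eif6, −0.29 for eIF2B, −0.27 for eEF1 and −0.20 for eIF3, but −0.02 for eIF4F and 0.04 for eIF2, and differences between complexes were not tested. The eEF1 value is that of Eef1e1, with Eef1a1, Eef1b2, Eef1d and Eef1g at −0.14, −0.12, −0.38 and −0.45. The part of nuclear RNA in these differences was not tested.

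**Figure D5:**
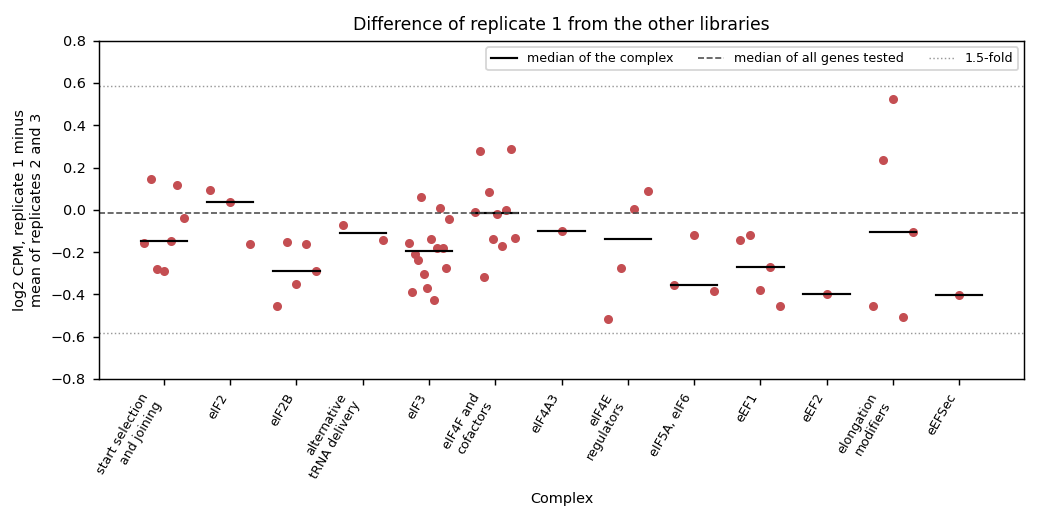
Difference in log2 CPM of replicate 1 from the mean of replicates 2 and 3 for the 61 detected members by complex, with the median of each complex as a bar, the median of all 12515 genes tested as a dashed line and 1.5-fold as dotted lines. All eIF2B, eEF1 and eIF5A or eIF6 points lie below the dashed line, and no point passes the dotted lines.

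Many mRNAs of the translation machinery are known to begin with a run of pyrimidines after the cap, through which mTORC1 controls their translation. RefSeq start sites on GRCm38.p6 were matched for 49 of the 65 members, and the window from 10 bases before to 20 after the start was searched for at least 8 C or T bases in a row on the gene's strand. For a gene with several starts, the window with the longest run was kept. Such a run was present for 9 members, or 18.4%, against 13.0% of 27025 genes with a start in that table. The window includes bases before the start, and in Eif4e and Eif4enif1 the whole run lay there, so not every run counted follows the cap. A run that reaches the window's end is counted only up to it, so some can be missed. The window of Eef2, scored as without a run, ends in 6 pyrimidines. The members with and without a run had median levels of 18.7 and 23.1 TPM, with Eif2s3y at 0 among the former and Eef1a2 at 0 among the latter. The windows of the most abundant factor and of 2 eIF3 genes are shown with every such run in capitals:
Eef1a1: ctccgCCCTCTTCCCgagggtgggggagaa
Eif3f: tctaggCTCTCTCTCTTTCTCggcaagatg
Eif3l: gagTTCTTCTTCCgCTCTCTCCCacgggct

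These windows lie at chr9:78481705-78481734 (minus strand), chr7:108934405-108934434 and chr15:79075213-79075242 (both plus strand). A run of these letters is a description of the window and of the start sites that table holds.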

How the data were processed

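Cytosolic total RNA of one group of 3 libraries was examined. The authors deposited expected counts and TPM per gene, and expected counts, TPM and the percent of each transcript in its gene, from an alignment to the transcriptome (mm10, GENCODE M21), per the authors' notes deposited beside the tables. They also deposited a transcript table with estimated counts and TPM made directly from the reads. Tool versions and the strand setting are not stated there. P-values measure only the spread between these libraries, which share a donor identifier.

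For edgeR 4.0.16 (R 4.3.3: expression filter, TMM, intercept-only dispersion, prior count 2) the expected counts were rounded. Each gene's 3 counts were set against a common rate by chi-square, adjusted over all genes at 0.05, and the step was tested on simulated data. Ratios used TPM + 0.1 for orders and plain TPM for folds. The direct table was rescaled to the TPM of nuclear-encoded protein-coding genes. Shared stretches of 31 bases were sought in all GENCODE M21 transcripts on both strands. DESeq2 1.42.0 served for alternatives. Every member may be named, isoforms are given for members under 80% coding share, with tables that differ in the leading transcript, and for Eif4a2, Eef1d, Eif4g2 and Eif4h, and other lists by counts and up to 4 examples. Members and lists were chosen with earlier results of these data known.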

Additional observations from a re-analysis of the deposited data

How the results depend on the processing

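The count of detected members was 50 at 5 TPM and 55 with the direct table as deposited, and 61 with that table rescaled, an alternative chosen after seeing the data. Without replicate 1, 2 or 3 the members varying beyond counting error numbered 34 to 48 and their median coefficient of variation was 0.0922 to 0.190, with the lowest of both without replicate 1. Over all genes the share varying was 40.4%, 58.2% and 61.5% and the coefficient 0.105, 0.194 and 0.220 without replicates 1, 2 and 3. DESeq2's gene-wise dispersion gave 0.0928 for the members and 0.104 for all genes. With no expression filter the median difference of replicate 1 was −0.25 (all genes 0.02). Over detected members only, the median was 28.9 TPM for eIF2 and 66.0 for eEF1. In the rescaled direct table it was 38.9 TPM for eIF4F and 9.32 for the eIF4E regulators. Without each library in turn the eIF4F median was 38.9 to 39.9 TPM. The log2 ratio of Eif3j1 to Eif3j2 was −1.01 in the direct table against 0.43, and the cause was not tested. Of 75 alternatives for answers to a comparison, 66 stayed close to the reported value, as did 63 of 87 for single pairs or members, with this pair the only reversal. The coding ratios from the direct table were added after seeing the data. No fit with the replicate number as a block was made because there is one group, and ratios between genes were taken within each library. In the alignment-based table depth limits Eef1a2, Eif2s3y and Eif4e1b to upper bounds, while the direct table gave estimates for Eif2s3y and Eif4e1b. The 3 libraries of one condition allow no statement on the treatment.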
